A study of Rattus norvegicus with 2 samples.

Results

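The calcium-activated potassium channels of stellate ganglia sympathetic neurons were followed through 8 genes, chosen by symbol from the 25395 uniquely named genes with a value. These were the SK channel genes Kcnn1, Kcnn2 and Kcnn3, the related intermediate conductance gene Kcnn4, the BK channel gene Kcnma1 and the BK beta subunit genes Kcnmb1, Kcnmb2 and Kcnmb4. All 8 had a value in both libraries. Cells of dissociated ganglia were sequenced with 10x Genomics 3′ chemistry in 1 library per strain: normotensive Wistar rats, and spontaneously hypertensive rats (SHRs) at a prehypertensive age. The rats of both strains were males of 5 to 6 weeks of age, carried no transgene and received no treatment. How many animals went into each library is not given in the sources used here. Each value is the mean over the sympathetic neurons of a library, in counts per 10000 counts of a cell. With 1 library per strain there was no spread between replicates, and no difference between the strains could be tested.

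BK channels open when the membrane depolarizes and calcium rises near the pore, and they speed the repolarization of the action potential. Their beta subunits are separate membrane proteins that change calcium sensitivity, gating speed and toxin block: beta1 is typical of smooth muscle, beta2 inactivates the channel and is known from chromaffin cells, and beta4 is the main form in neurons. SK channels sense calcium through bound calmodulin, need no depolarization, and carry the slower afterhyperpolarization that spaces out action potentials. Apamin blocks SK channels, but neither BK channels nor the channel encoded by Kcnn4.

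The contrast among the BK genes was between Kcnma1 and Kcnmb4, which had ready signal in these neurons, and Kcnmb1 and Kcnmb2, which were listed at 0. The bases upstream of the start of these 4 genes are therefore set side by side, from RefSeq and the GRCr8 assembly, 250 bases each and 5′ to 3′ on the strand of the gene. Capitals mark CpG dinucleotides. The windows lie at chr15:351675-351924 on the plus strand for Kcnma1, chr7:54005102-54005351 on the minus strand for Kcnmb4, chr10:19061849-19062098 on the plus strand for Kcnmb1 and chr2:116599049-116599298 on the plus strand for Kcnmb2.
Kcnma1: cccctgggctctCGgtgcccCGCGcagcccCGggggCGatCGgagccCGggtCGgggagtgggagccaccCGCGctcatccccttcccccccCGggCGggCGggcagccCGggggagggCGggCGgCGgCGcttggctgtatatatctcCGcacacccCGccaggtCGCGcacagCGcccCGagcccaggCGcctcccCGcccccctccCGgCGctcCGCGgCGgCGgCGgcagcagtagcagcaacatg
Kcnmb4: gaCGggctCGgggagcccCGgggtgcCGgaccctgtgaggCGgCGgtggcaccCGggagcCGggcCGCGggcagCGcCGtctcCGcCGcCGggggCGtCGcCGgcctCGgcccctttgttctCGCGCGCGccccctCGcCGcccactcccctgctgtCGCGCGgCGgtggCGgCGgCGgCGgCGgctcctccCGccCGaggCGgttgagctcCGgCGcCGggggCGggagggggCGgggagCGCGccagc
Kcnmb1: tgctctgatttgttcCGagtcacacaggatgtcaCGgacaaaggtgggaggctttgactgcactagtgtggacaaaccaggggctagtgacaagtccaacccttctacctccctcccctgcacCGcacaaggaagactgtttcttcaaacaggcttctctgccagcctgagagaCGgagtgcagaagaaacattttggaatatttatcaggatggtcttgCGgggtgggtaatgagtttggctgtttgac
Kcnmb2: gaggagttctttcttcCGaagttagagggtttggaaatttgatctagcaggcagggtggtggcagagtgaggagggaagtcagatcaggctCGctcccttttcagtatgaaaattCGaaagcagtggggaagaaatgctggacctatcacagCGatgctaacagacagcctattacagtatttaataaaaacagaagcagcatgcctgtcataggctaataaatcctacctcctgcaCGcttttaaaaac

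The upstream window of Kcnmb4 held 44 CpG dinucleotides, and 0.517% of the 33469 windows of this length in the RefSeq table held as many or more. That of Kcnma1 held 33, a number reached by 3.6% of the windows. Kcnmb1 and Kcnmb2 each held 5, which is also the median of all windows. The GC box GGGCGG, searched on both strands, was present upstream of Kcnma1 and Kcnmb4 and in 30.5% of all windows, but its letters were not in the windows of Kcnmb1 and Kcnmb2. Among the SK genes, the window of Kcnn2 held 22 CpG dinucleotides and that of Kcnn3 held 11. The Kcnn2 window can be read as codons along its length without a stop. It may thus be coding sequence, and its count may not compare with the others. The letters TATAAA, present in 12.9% of all windows, and TGACGTCA, present in 1.59%, were in none of these 6 windows. RefSeq entries for Kcnn1 and Kcnn4 were not used here. These windows describe the reference sequence and were not compared with any measured binding.

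The labelled cell type held in the data. All 14 sympathetic neuron markers were above 0 in both libraries, with Th, the first enzyme of noradrenaline synthesis, at 10.2 per 10000 in Wistar and 10.1 in SHR. Not all markers were as level as Th. By at least 1.5 times, 4 of the 14 were lower in SHR, with Ddc the lowest in ratio (7.05 and 3.44). Hand2 was the 1 marker higher by as much (0.25 and 0.452). Markers of other cells were low but not absent, and most lists were lower in SHR. The sum of the 7 satellite glia and Schwann cell markers was 3.1 in Wistar and 1.22 in SHR, that of the 6 fibroblast markers 1.84 and 0.353, and that of the 8 immune markers 1.18 and 0.416. The 7 smooth muscle markers summed to 0.126 and 0.0809, the 5 pericyte markers to 0.0178 in both, and the 6 endothelial markers with a value to 0.132 and 0.102. The 3 chromaffin cell markers summed to 4.33 and 3.15, most of it from Chgb, a granule protein of neurons as well (3.78 and 3.1), with Pnmt, the adrenaline-forming enzyme, at 0.00175 in Wistar and 0 in SHR. The 3 erythrocyte markers with a value summed to 0.0669 and 0.0499. The part of these other cells in the differences given here was not tested. Of the 7621 genes with a level of 0.1 per 10000 or more (averaged over the libraries), 65.6% had the lower mean in SHR, and the median log2 ratio (SHR over Wistar) was -0.21. Among these genes, 26.5% had an SHR mean at least 1.5 times below that of Wistar, and 5.22% had one at least 1.5 times above (2021 and 398 genes, or 1320 and 1005 once the median log2 ratio is set to 0). Of the 8 channel genes, 3 reached this average, all 3 were lower in SHR, and 1 of them, Kcnn3, was lower by at least 1.5 times, so that the shares stand on 3 genes and show nothing particular to these channels.

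Kcnmb4 was the most abundant of the 8 genes in both strains. Its mean was 1.28 per 10000 in Wistar, where it ranked 1349 among all genes, and 0.851 in SHR, where it ranked 1896. The log2 ratio was -0.58, which is 1.498 times lower and just short of 1.5. In a mean over neurons, fewer neurons with a transcript and fewer transcripts per neuron cannot be told apart. Kcnma1, which encodes the pore-forming BK alpha subunit, averaged 0.598 counts per 10000 in the Wistar library against 0.434 in the SHR library, with a log2 ratio of -0.46. Both genes were further below Wistar than the median gene: with the median log2 ratio set to 0, Kcnmb4 was at -0.37 and Kcnma1 at -0.25. Kcnmb1 and Kcnmb2 were listed at 0 in both libraries, as was Kcnmb3, the remaining BK beta gene. A 0 in these means is not by itself a sign that a gene is silent, since Ppp2ca, a catalytic subunit of protein phosphatase 2A that most cells use, was likewise listed at 0 in both. The smooth muscle genes Acta2 and Myh11, by contrast, were above 0, at 0.00983 and 0.088 per 10000 in Wistar. No ratio between the strains can be given for Kcnmb1, Kcnmb2 and Kcnmb3.

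**Figure D1:**
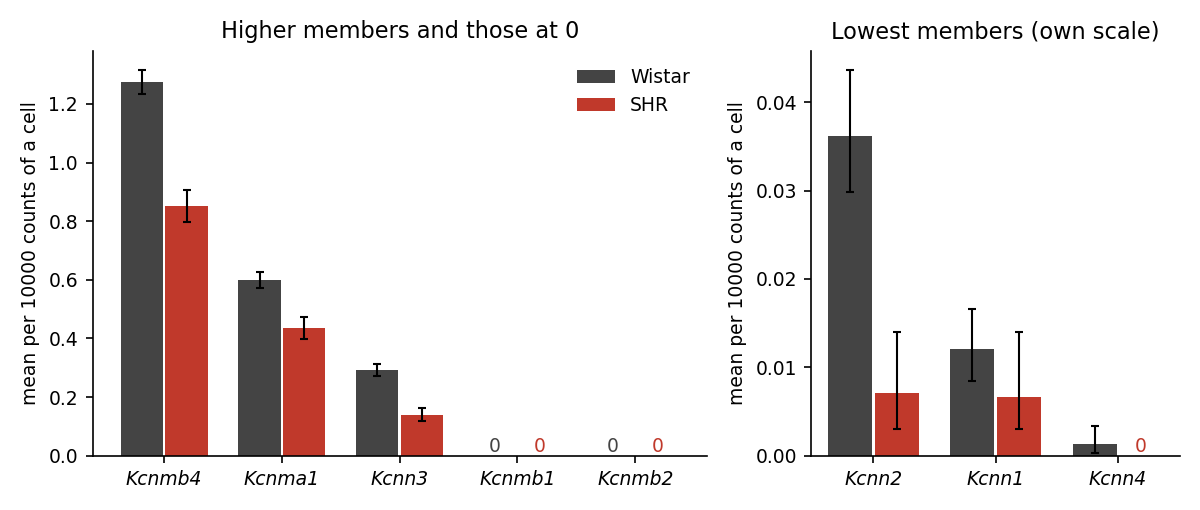
Means of the 8 genes in counts per 10000 counts of a cell, 1 bar per library (dark, Wistar; red, SHR); the right panel has its own scale, a 0 marks a gene listed at 0, and error bars are exact 95% Poisson intervals of estimated transcript numbers, covering counting error only. Kcnmb4 stands highest at 1.28 in Wistar and 0.851 in SHR, Kcnmb1 and Kcnmb2 are at 0, and the intervals of Kcnn1 overlap between the libraries.

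The BK beta to alpha ratio therefore rested on Kcnmb4 alone. In Wistar, Kcnmb4 had 2.13 times the mean of Kcnma1, and in SHR 1.96 times, a difference of -0.12 on the log2 scale. The ratio is of transcripts counted once at their 3′ end, so gene length does not enter it, but how well each 3′ end was captured does. It is a ratio of average transcript levels and not of subunits in a channel. The 2 genes were lower in SHR by similar amounts, and their ratio moved less between the libraries than either gene did.

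Of the other BK partners, the gamma subunit genes were scarce and Lingo1 was not. Of the 4 gamma subunit genes, which shift BK opening to more negative voltages, Lrrc55 had the highest mean, at 0.0731 per 10000 in Wistar and 0.0895 in SHR. Against Kcnma1 this was 0.122 in Wistar and 0.206 in SHR, a comparison chosen after the values were seen. Both Lrrc55 means are under 0.1 per 10000, and 1 transcript in an SHR cell of low depth can add as much as 0.0186. The Lrrc55 difference may thus rest on few transcripts. Lrrc52 was at 0.00567 and 0.0024 per 10000, Lrrc38 at 0.00266 in Wistar and 0 in SHR, and Lrrc26 was listed at 0 in both. Lingo1, a membrane protein that also binds BK channels, had means of 0.749 and 0.717 per 10000, above Kcnma1 in both libraries, with a log2 ratio of -0.06 that turns positive with the median ratio set to 0. Of this list of 6 partners, Lingo1 alone reached an average of 0.1 per 10000.

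Among the SK genes, Kcnn3 carried most of the signal. Kcnn3, which encodes SK3, averaged 0.292 counts per 10000 in the Wistar library against 0.14 in the SHR library, a log2 ratio of -1.06. It made up 85.5% of the sum of the 4 Kcnn genes in Wistar and 91% in SHR. Kcnn2, which encodes SK2, was at 0.0362 per 10000 in Wistar and 0.00715 in SHR, 5.07 times lower (a log2 ratio of -2.34, or -1.43 with a pseudocount of 0.01), and its share of the sum went from 10.6% to 4.66%. Kcnn1, which encodes SK1, was at 0.0121 in Wistar and 0.00669 in SHR, with shares of 3.54% and 4.36%. In Wistar the order of the means was Kcnn3, Kcnn2, Kcnn1 and Kcnn4, whereas in SHR Kcnn2 and Kcnn1 differed by less than their counting error. Kcnn4, known from blood cells, endothelium and epithelia, had a Wistar mean of 0.00132 per 10000 and was listed at 0 in SHR.

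The lowest values in each library showed how few transcripts these small means can rest on. Many of the lowest values were shared to the last digit by several genes, as happens when each gene had 1 transcript in the same cell. Such shared values, or steps, numbered 199 in Wistar and 108 in SHR, with medians of 0.000327 and 0.000885 per 10000. A mean divided by the median step gives an estimate of its transcripts, and a mean divided by the lowest step (0.00014 in Wistar and 0.000391 in SHR) gives a rough upper number. The estimate for Kcnn1 was 37 transcripts in Wistar and 8 in SHR, with no more than 86 and 17 by the lowest step. In SHR, 8 transcripts have an exact 95% Poisson interval of 0.00305 to 0.0139 per 10000, which includes the Wistar mean, so a difference in Kcnn1 was not detectable at this depth. Kcnn2 was estimated at 111 transcripts in Wistar (0.0298 to 0.0436 per 10000) and likewise at 8 in SHR, and these intervals do not overlap. The largest steps, 0.00776 in Wistar and 0.0186 in SHR, come from cells of low depth, and a mean that includes transcripts of such cells rests on fewer transcripts than the estimate. For Kcnn2 in Wistar, at 0.0362, only a few of them would be needed, so its interval may be too narrow. Kcnn4 was estimated at 4 transcripts in Wistar. At the median step of SHR its Wistar mean would be 1.49 transcripts, so the 0 in SHR does not separate the libraries. For Kcnn3 the estimates were 893 and 158, for Kcnma1 1831 and 491, and for Kcnmb4 3905 and 962. The Poisson intervals of these 3 genes do not overlap between the libraries. The share of all genes for which this holds was not counted, so nothing particular to these genes or to Kcnn2 can be read from it. Transcripts of cells of low depth would make these intervals too narrow as well, as for Kcnn3 in SHR, at 0.14 per 10000. The intervals cover counting error in the neurons sequenced and neither differences among neurons nor among animals.

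**Figure D2:**
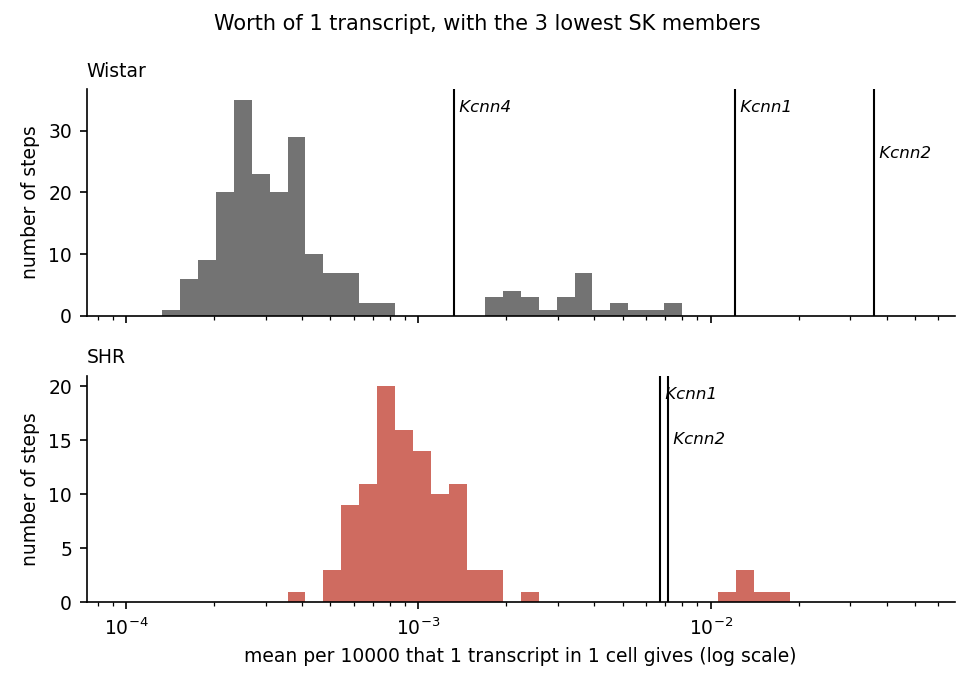
Number of steps (shared low values, taken as 1 transcript in 1 cell) by their size in counts per 10000, on a log axis, for Wistar (top) and SHR (bottom), with vertical lines at the means of Kcnn4, Kcnn1 and Kcnn2. In SHR, Kcnn1 and Kcnn2 lie within about 8 median steps of 0, and in Wistar they lie much further above the main group of steps.

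The balance of BK to SK transcripts was higher in SHR. Kcnma1 had 1.75 times the summed mean of the 4 Kcnn genes in Wistar (0.598 against 0.341 per 10000) and 2.83 times in SHR (0.434 against 0.153). The ratio was thus 1.62 times higher in SHR, a log2 difference of 0.69. Both sides were lower in SHR, but the SK sum more so: its log2 ratio was -1.15, against -0.46 for Kcnma1. With Kcnn3 in place of the sum, the ratios were 2.05 and 3.11, so the higher balance in SHR does not rest on the scarce Kcnn1, Kcnn2 and Kcnn4. Kcnmb4 against the SK sum gave 3.74 in Wistar and 5.55 in SHR. These ratios are formed within a library, so a change in the library total cannot alter them. They compare 1 library with 1 library, and their spread between animals is not known. Past 1.5 times, 2021 of the 7621 genes averaging at least 0.1 per 10000 were lower in SHR and 398 higher. Of the 1676 averaging at least 1, 195 were lower and 172 higher, so the excess of lower genes depended on level. Kcnn3 averaged 0.216 over both libraries and Kcnma1 0.516. Whether other pairs of genes at such levels shift as much was not tested.

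**Figure D3:**
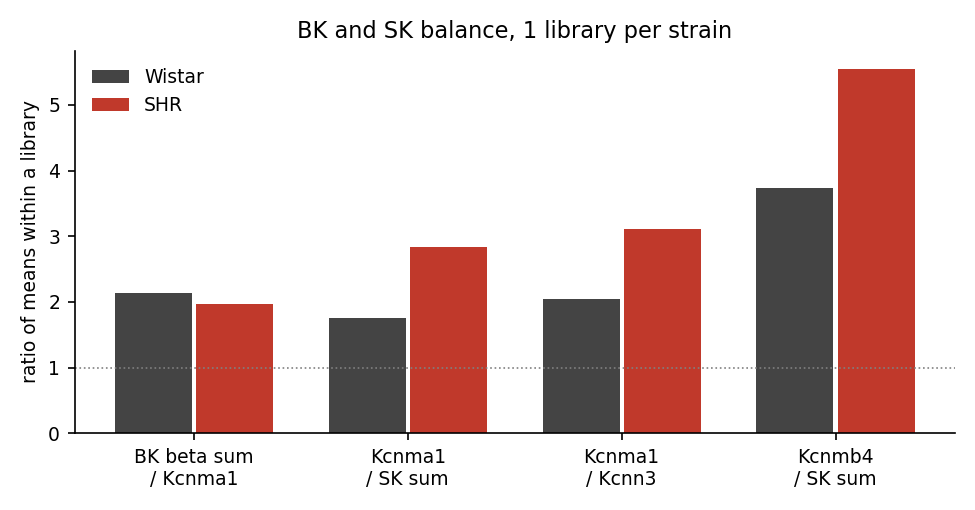
Ratios of mean levels within each library (dark, Wistar; red, SHR), with a dotted line at equal levels; there is 1 library per strain and no error bar. The BK beta to Kcnma1 ratio is near 2 in both libraries (2.13 and 1.96), whereas the Kcnma1 to SK sum ratio is 1.75 in Wistar and 2.83 in SHR.

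Both channel types depend on nearby calcium, and the 3 calcium entry genes with enough signal had lower means in SHR. Of the 8 voltage-gated calcium channel genes with a value, 3 reached an average of 0.1 per 10000, and all 3 were lower in SHR by at least 1.5 times, as were 26.5% of all genes past this minimum. Their median log2 ratio was -1.09 against -0.21 over all such genes, and nothing particular to 3 genes can be read from it. Cacna1b, which encodes the N-type channel Cav2.2, had means of 2.67 per 10000 and 1.28, Wistar first. Cacna1a, the P/Q-type gene, was at 0.907 and 0.425, and the L-type gene Cacna1d at 0.157 and 0.073. Set against the potassium channel genes, a comparison chosen after the values were seen, Cacna1b had 7.83 times the SK sum in Wistar and 8.33 times in SHR. Against Kcnma1 it had 4.47 times in Wistar and 2.94 times in SHR. The N-type calcium channel gene and the SK sum, which is mostly Kcnn3, were therefore lower by nearly the same factor, and Kcnma1 by a smaller one. Kcnn2 and Kcnn1 taken singly were 5.07 and 1.81 times lower.

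For release from internal stores, 3 of 10 genes reached the minimum, and 2 of the 3 were lower by at least 1.5 times, against 26.5% of all genes past it. Ryr2, a ryanodine receptor, had means of 0.475 per 10000 in Wistar against 0.23 in SHR. Itpr1, an inositol trisphosphate receptor, had means of 0.156 and 0.0864. Jph3, a junctophilin that holds the store membrane close to the plasma membrane, was higher in SHR, at 0.728 against 0.614. Its relatives Jph1, at 0.0295 and 0.00437, and Jph4, at 0.00827 and 0.000738, were lower in SHR at levels under the minimum. The SHR mean of Jph4 equals a step of that library, which is taken as 1 transcript in 1 cell. Its Wistar mean is near the largest step there, 0.00776. Few transcripts may thus underlie the Jph4 means, and no transcript number was estimated for Jph1.

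The SK channel complex mostly went the other way from the SK genes, by small amounts. This list holds calmodulin, the calcium sensor of SK channels, with casein kinase 2 and protein phosphatase 2A, which set its calcium sensitivity. Of its 7 genes past the minimum, 6 were higher in SHR and 1 was lower, and none differed by 1.5 times. Over all genes past the minimum, 65.6% were lower, 26.5% lower by at least 1.5 times and 5.22% higher by as much. The median log2 ratio of the 7 was 0.20 against -0.21 over all such genes. Of the 1676 genes averaging at least 1 per 10000, however, 195 were lower and 172 higher past 1.5 times. Most of the 7 genes average above 1, among them Calm2, Calm3, Ppp2r1a and Ppp2cb, and no median was taken at that level. Calm3 had means of 5.6 per 10000 in Wistar against 7.29 in SHR, and Calm2 5.36 against 6.16. Ppp2r1a, the scaffold subunit of the phosphatase, was at 3.61 and 4.11, and Ppp2cb, a catalytic subunit, at 2.55 and 3.37. Csnk2a2, a casein kinase 2 catalytic subunit, was the one below Wistar, at 0.189 against 0.197, and it too is above Wistar with the median ratio set to 0. These proteins serve many partners besides SK channels, and their transcripts far outnumber those of the Kcnn genes.

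The kinases that act on BK channels were mixed. Prkg1, also on this list, had no value. Of the 4 with a value, 3 were lower in SHR and 1 was higher, and 2 were lower by at least 1.5 times. Over all genes past the minimum these shares were 65.6% lower and 26.5% lower by at least 1.5 times. Prkg2, a cyclic GMP-dependent protein kinase, was at 1.02 per 10000 in Wistar and 0.176 in SHR, 5.81 times lower. Prkacb, a catalytic subunit of protein kinase A, was at 0.254 and 0.163, whereas Prkaca, another, was higher in SHR at 1.36 against 1.14. Prkca, a protein kinase C, was at 0.927 and 0.625.

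The other Slo genes above 0, Kcnt1 and Kcnt2, encode relatives of BK that sodium activates, and they split in direction. Kcnt1, which encodes Slack, was at 0.477 per 10000 in Wistar and 0.15 in SHR, 3.18 times lower. Kcnt2, which encodes Slick, was at 0.00377 and 0.0418 and so 11.1 times higher in SHR, but this SHR mean is under the minimum and only a few times the largest step in that library (0.0186). The sperm channel gene Kcnu1 was listed at 0 in both. Of the other calcium-activated channels, Trpm4, a cation channel, was at 0.133 and 0.089 per 10000, and the chloride channel genes Ano1 and Ano2 and the cation channel gene Trpm5 were listed at 0. In Wistar, Kcnt1 thus had a mean between those of Kcnn3 and Kcnma1, and in SHR it was near that of Kcnn3.

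**Figure D4:**
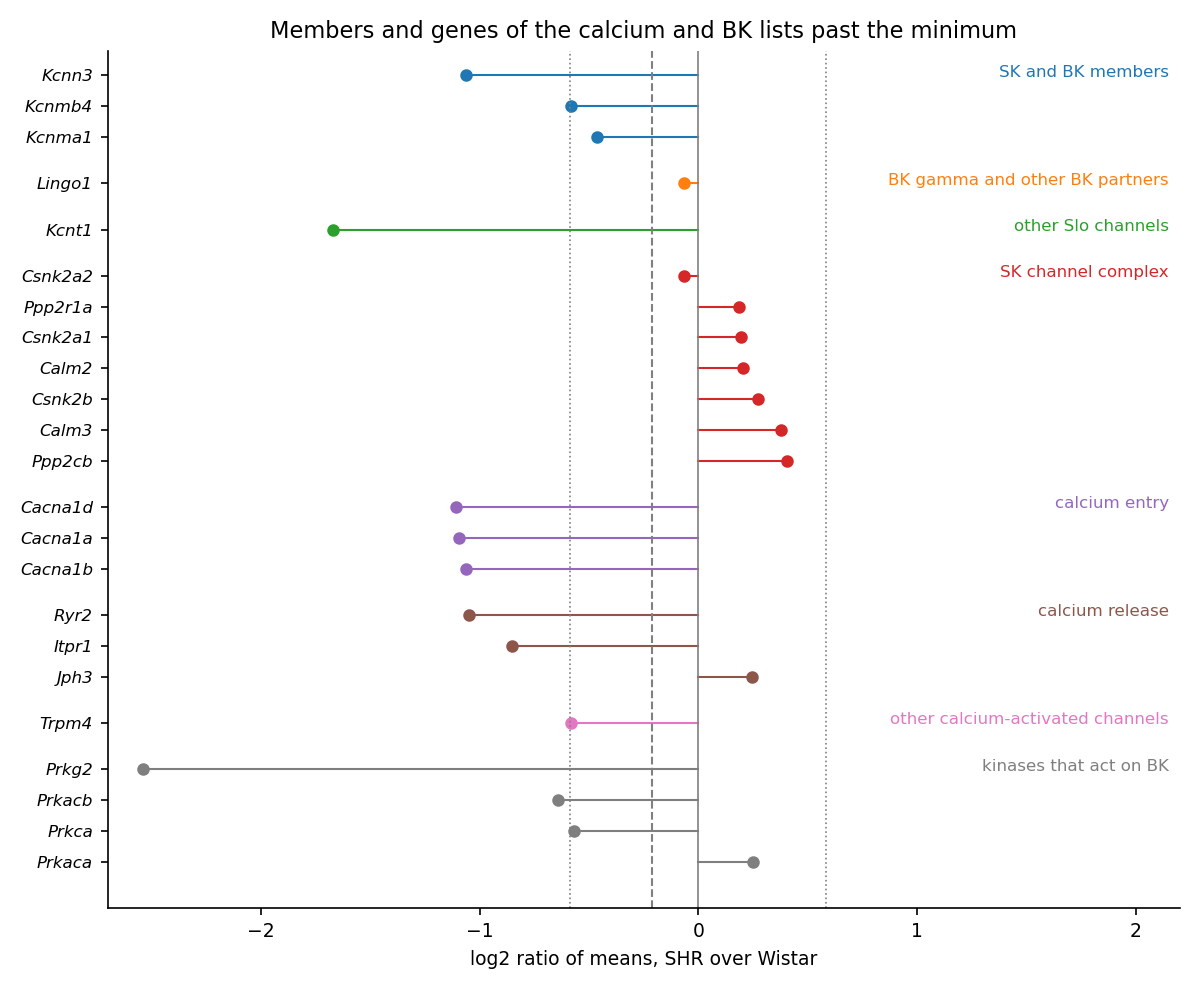
Log2 ratio of means (SHR over Wistar) for the 3 channel genes and the list genes with an average of at least 0.1 per 10000, colored by list; the dashed line is the median of all 7621 such genes (-0.21) and the dotted lines mark a 1.5 times difference either way. Kcnn3 lies beside the calcium entry genes near -1.1, Kcnma1 and Kcnmb4 lie nearer to 0, and the SK channel complex lies mostly above 0.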

How the data were processed

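Dissociated stellate ganglia of both strains were run as single cells with 10x Genomics 3′ v3 chemistry. Per the submitters' processing notes, Cell Ranger 3.0.2 and Seurat 3 were used with the genome build Rnor_6.0, and DESeq2 is also listed. The authors clustered the cells and deposited, for the sympathetic neurons of a library, a single value for every gene on a natural log scale (natural log of 1 plus the mean per 10000). Filters on cells and doublet treatment are not given in the sources used here. A further deposited table holds the authors' own fold changes and p-values and was not used.

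The members and lists were chosen with earlier results of these data known. Values were converted back with the exponential minus 1 in Python 3.11.15 with NumPy 2.4.6, pandas 2.3.3 and SciPy 1.17.1. The 25399 lines sum to 10000 in each library. Names that occur more than once (4 lines) were left out. Ratios are of means with no pseudocount, and no test was run. Genes were counted as lower or higher past 1.5 times among those averaging at least 0.1 per 10000. List genes were named when past this minimum, at most 4 a list by highest average. A gene of the SK channel complex list is not reported here and was left out of its counts. The others named, among them all genes at or near 0, were chosen after their values were seen, as were Csnk2a2, Th, Ddc, Hand2, Acta2 and Myh11. Steps are values that at least 3 genes share exactly, without whole multiples of lower ones, and the search was tested on simulated cells. There, estimated over true transcripts had a median of 1.1 with the Wistar settings and 0.893 with those of SHR. The simulated cells had no separate group of far lower depth, so they cannot show how such cells affect the estimates. Alternatives were pseudocounts, scalings, minimums, folds and other sums.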

Additional observations from a re-analysis of the deposited data

How the results depend on the processing

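No paired analysis was possible because a single library stands for Wistar and a single one for SHR. The use of steps was chosen after seeing the data, and taking steps shared by at least 2 or 4 genes left all 11 estimated transcript numbers within 1.5 times. A value was taken as unmoved when it kept its sign and shifted by under 0.2 on the log2 scale. With a pseudocount of 1, the log2 ratio of Kcnma1 became -0.16, that of the SK sum -0.22 and the log2 difference in BK to SK balance 0.062. With 0.1, the SK sum became -0.80 and the balance difference 0.41. Setting the median log2 ratio to 0 adds 0.21 to every gene and gave -0.25 for Kcnma1 and -0.94 for the SK sum. With Kcnn3 alone in place of the SK sum, the Wistar balance was 1.04 on the log2 scale. Leaving mitochondrial and ribosomal protein genes or other cells' markers out of the total, or dividing by the sympathetic markers, moved neither Kcnma1 nor the SK sum by 0.2. The strain difference in the BK beta to alpha ratio, -0.12, was -0.13 to -0.15 with the pseudocounts. Other choices of beta genes could not move it, since all but Kcnmb4 are at 0. Kcnn2, at -2.34, became -1.43 with a pseudocount of 0.01 and -0.35 with 0.1. No sign changed in the log2 ratios of Kcnn1, Kcnn2, Kcnn3, Kcnma1 and Kcnmb4, which a pseudocount cannot turn. Kcnn4, Kcnmb1 and Kcnmb2 have no ratio. Genes lower and higher past 1.5 times, 2021 and 398, became 5108 and 1650 with no minimum, 195 and 172 at a minimum of 1 per 10000, 861 and 58 at a fold of 2, and 1320 and 1005 with the median at 0. Most of these settings change the counts by construction.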

Other observations

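The steps fell into 2 groups in each library, a split seen only after the data were examined. In Wistar, 171 steps lay at or below 0.000807 per 10000 and 28 at or above 0.0017, with medians 11.3 times apart. In SHR, 102 lay at or below 0.00231 and 6 at or above 0.0115, with medians 16 times apart. Since a larger step belongs to a cell with fewer counts, both sets of averaged cells held some of far lower depth, and each such cell weighs as much in the mean as a deep one. The means of Kcnn1 and Kcnn2 in SHR, 0.00669 and 0.00715, and that of Kcnn4 in Wistar, 0.00132, are under the lowest step of the second group, so none of the 3 can include a transcript from one of those cells. What these cells are was not tested.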
